A study of Gallus gallus with 4 samples.

Results

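PPARG, CEBPB and LEPR were followed through the c-Myc peak lists of chicken muscle cells, as 3 of the 4834 genes that the lists name. The genes were chosen from measured values, since each has a c-Myc peak within 1 kb of its transcription start site (TSS) in myoblasts, so the presence of those peaks is a description and not a finding. Every row of the deposited peak lists that names 1 of the genes was taken, which gave 14 of 19354 peaks in myoblasts and 1 of 1061 peaks in myotubes. The study asked which sites c-Myc, a transcription factor that pairs with MAX on E-box DNA, occupies before and after muscle cells differentiate. The myoblasts were proliferating primary cells of embryonic chicken skeletal muscle at passage 1 in RPMI-1640 with 15% fetal bovine serum, and the myotubes were such cells after differentiation in RPMI-1640 with 2% horse serum, both media with penicillin and streptomycin. Each cell state gave 1 library with a c-Myc antibody and 1 with IgG as the control, 4 libraries in all. No state had a replicate, so no test between states was possible and every difference below is between single libraries. In myoblasts the depth was 11.5M tags for c-Myc and 16.1M for IgG, and in myotubes it was 8.65M and 19.3M. Expression was not measured, so the labelled cell types could not be checked against marker genes. In such bulk cultures, strong occupancy in few cells and weak occupancy in many cannot be told apart.

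PPARG encodes PPAR gamma, the nuclear receptor that drives fat cell differentiation, which binds DNA together with a retinoid X receptor. CEBPB encodes C/EBP beta, a leucine zipper factor that acts early in adipogenesis, known from mouse cells to switch on Pparg and Cebpa, and also active in macrophages, liver and muscle progenitors. LEPR encodes the leptin receptor, a cytokine receptor that signals through Janus kinases and STAT factors, and is best known for appetite control in the mammalian brain. Muscle and fat precursors share a mesodermal origin, and forced expression of PPAR gamma and a C/EBP factor turns cultured mouse myoblasts towards the fat cell programme. c-Myc is a growth regulator whose level falls as cells stop dividing.

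PPARG had 8 myoblast peaks and no myotube peak. They spread from -54.6 to 19.3 kb around its TSS on chromosome 12 of galGal4, the build of the files, and their scores ran from 10.5 to 18.3. The score is the authors' own and is the c-Myc tags at peak calling, scaled to a library of 10M. The c-Myc and IgG tags given beside it are a separate count over the listed interval, and for c-Myc the 2 counts can differ. The peak nearest the TSS, centred at -945 bp (chromosome 12, 4856513 to 4856713), had a score of 10.9 and held 11.5 c-Myc and 2 IgG tags. It lay just inside the 1 kb limit, and the next peak outward, at -7575 bp with a score of 11.8, held 13.5 c-Myc tags and 1 IgG tag.

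The higher PPARG scores were far upstream. At -37344 bp (4820114 to 4820314) the score was 18.3, with 21 c-Myc and 5 IgG tags. At -34678 bp (4822780 to 4822980) it was 14.8, with 20 and 2 tags, and at -54559 bp (4802899 to 4803099) it was 15.7, with 15.5 and 3 tags. At -34678 bp the tags at peak calling were 17 and at -54559 bp they were 18, so the order of this pair depends on the count used. By the authors' fold over IgG, the peak at -37344 bp had 5.35, and those at -34678 and -54559 bp had 7.94 and 10.09. The median fold of the myoblast list was 7.94. These 3 peaks lay in sequence annotated as intergenic, and they were the PPARG peaks with scores above the list median of 12.6. Downstream of the TSS, a peak at 9363 bp (4866821 to 4867021) lay in exon 4 of 6, with a score of 10.5 and 12 c-Myc tags against 1 IgG tag. Intron 5 held a pair of peaks with centres 1086 bp apart. The first, at 18201 bp, had a score of 11.8 with 16 and 1 tags, more c-Myc tags over the interval than at -54559 bp, and the second, at 19287 bp, had 10.9 with 12.5 and 4 tags.

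CEBPB had 2 myoblast peaks and 1 myotube peak. The myoblast peak at the TSS was centred at 372 bp, downstream of the start (chromosome 20, 14055423 to 14055623), and had a score of 14.8 with 17 c-Myc and 3 IgG tags. It was the highest of the promoter peaks of the 3 genes by score. The other myoblast peak, at 41006 bp (14014789 to 14014989) in intergenic sequence, had a score of 13.1 with 13 and 5 tags. The myotube peak, at 50843 bp (14004975 to 14005129), was also intergenic and had a score of 11.6, with 11 c-Myc tags against 4 tags in the deeper IgG library. It stood near the lower end of the myotube list, with 3.02% of those peaks below its score. Its caller score, a separate value from peak calling, was 11, the lowest of that list. Both distal peaks lay beyond the end of the gene, and their centres were 9.84 kb apart without overlap.

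LEPR had 4 myoblast peaks and no myotube peak. The peak at its TSS was centred at -292 bp (chromosome 8, 27238170 to 27238370), with a score of 11.8 and 14 c-Myc and 3 IgG tags. A peak in intron 10 of 19, at 18861 bp (27257323 to 27257523), had the highest score of the gene, 13.9, with 16 and 5.5 tags. The remaining peaks were intergenic, at 43425 bp with a score of 11.3 and at 70130 bp with 10.9. They held 13 and 12.5 c-Myc tags against 3.5 and 4 IgG tags. Of the PPARG peaks 5 of 8 were upstream of the TSS, of the LEPR peaks 1 of 4, and the CEBPB peaks lay downstream. The share over all myoblast peaks was not computed, so the counts are not read as a trait of these genes.

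**Figure D1:**
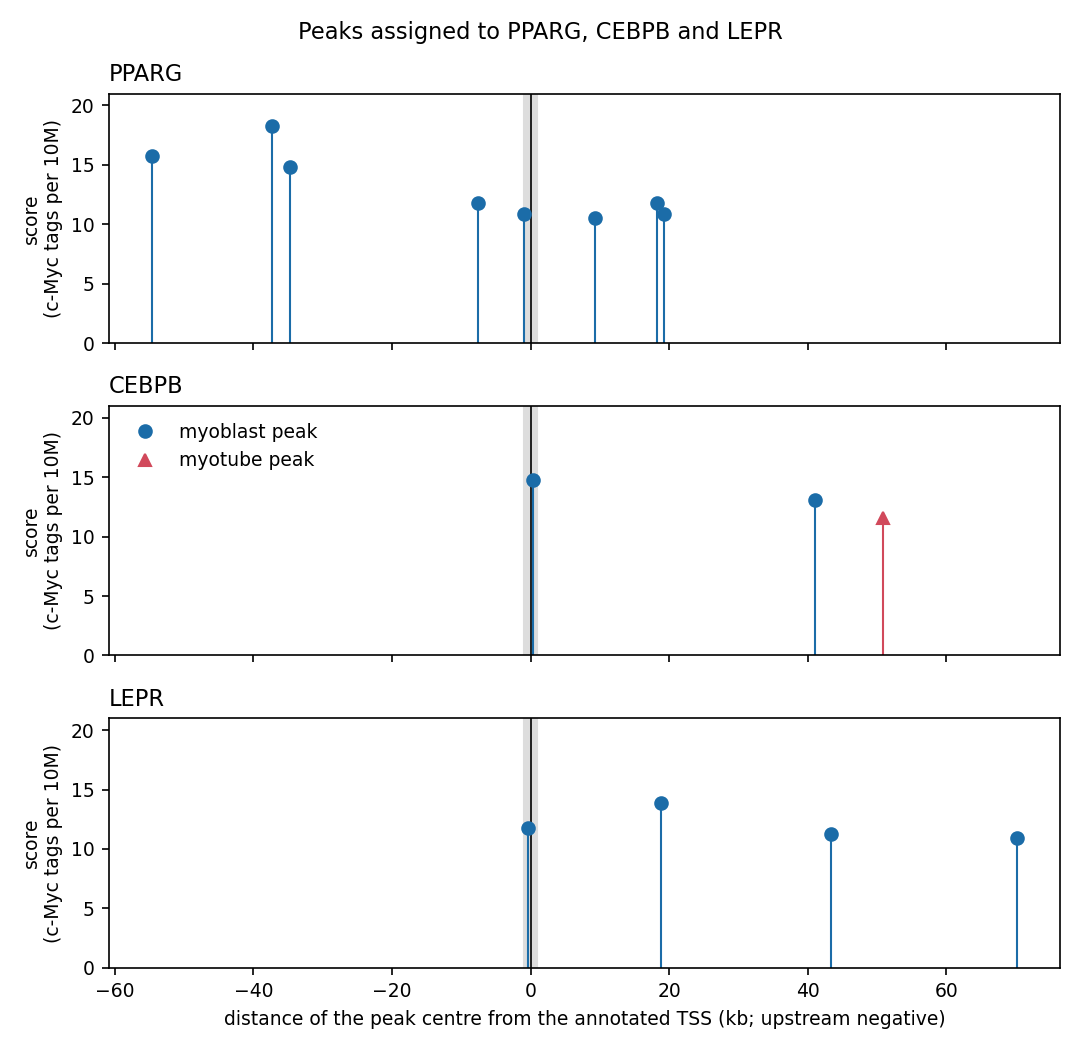
The horizontal axis is the distance of each assigned peak from the annotated TSS in kb (upstream negative) and the vertical axis its score in c-Myc tags per 10M, with 1 panel per gene, circles for myoblast peaks, a triangle for the myotube peak and a grey band for 1 kb on either side of the TSS. Each gene has 1 myoblast peak in the band, and the highest PPARG scores, 18.3 and 15.7, lie at -37.3 and -54.6 kb.

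Counting error was large for each peak. Tags come in steps of 0.5, so the intervals below, made for whole counts, are approximate here. With exact 95% Poisson intervals, which cover counting error only, the PPARG peak at -37344 bp had 18.3 c-Myc tags per 10M (11.3 to 28) and the peak at -945 bp had 10.02 (5.09 to 17.7). The intervals of c-Myc tags over the peak overlapped for all 91 pairs of the 14 myoblast peaks. Overlap of intervals is no test of a difference, so differences between peaks were not tested. Against IgG, scaled in the same way, the c-Myc interval lay above the IgG interval at 11 of the 14 peaks. These were 7 of 8 at PPARG, 1 of 2 at CEBPB and 3 of 4 at LEPR. The share over all myoblast peaks was not computed, so the count is not read as a trait of these genes. At the CEBPB TSS, c-Myc had 14.8 tags per 10M (8.63 to 23.7) and IgG had 1.87 (0.385 to 5.45). At the CEBPB peak at 41006 bp the values were 11.3 (6.03 to 19.4) and 3.11 (1.01 to 7.26), with intervals that overlapped. At the LEPR TSS they were 12.2 (6.67 to 20.5) and 1.87 (0.385 to 5.45). The CEBPB myotube peak had 12.7 (6.35 to 22.8) against 2.07 (0.565 to 5.31). Peaks were listed because they exceeded IgG, so these differences describe the lists.

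**Figure D2:**
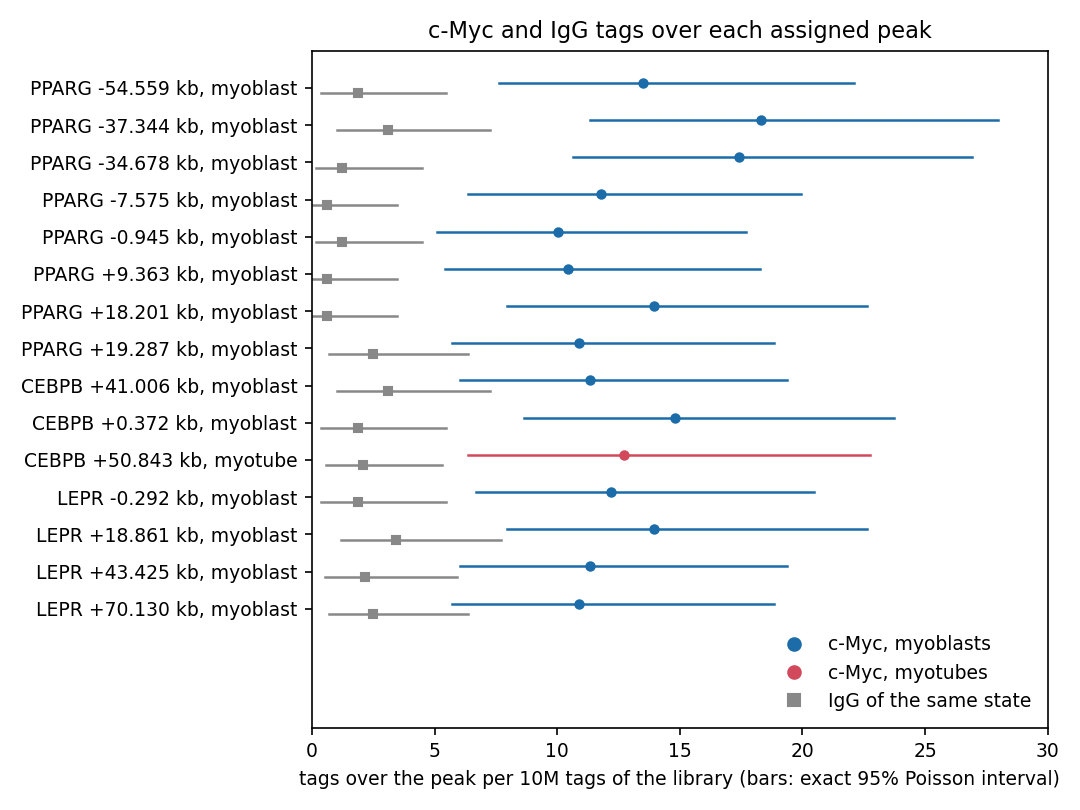
Each line is 1 assigned peak, named by gene, distance from the TSS in kb and cell state, and the horizontal axis is tags over the peak per 10M tags of the library for c-Myc (circles) and for IgG of the same state (squares), with bars for exact 95% Poisson intervals. The c-Myc interval lies above the IgG interval at 11 of the 14 myoblast peaks, and the c-Myc intervals overlap one another. The share over all myoblast peaks was not computed.

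Summed over its 8 peaks, PPARG held 122 c-Myc and 19 IgG tags, a c-Myc to IgG ratio per 10M tags of 9.0 (exact conditional interval 5.52 to 15.5). The sum over 4 LEPR peaks, 55.5 and 16 tags, gave 4.86 (2.75 to 9.08), and that over 2 CEBPB peaks, 30 and 8 tags, gave 5.26 (2.35 to 13.3). All myoblast peaks together gave 7.80, inside the interval of each gene. The authors' fold over IgG ranged from 4.08 to 18.9 over the 14 peaks, with a median of 7.94, equal to the median of the whole list. None of the 14 peaks was labelled as a simple repeat, low-complexity sequence or structural RNA gene. Transposable elements were not part of this check, and the share over all myoblast peaks was not computed.

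All 3 genes had a myoblast peak within 1 kb of the TSS, which is how they were chosen, beside 22.0% of all named genes. In myotubes none had one, beside 1.37%. With a window of 500 bp, 2 of the 3 genes had a myoblast peak, CEBPB and LEPR, beside 16.8% of all named genes. Ranked among the 1106 myoblast peaks within 1 kb of a TSS, the PPARG score was near the lower end, with 5.42% of those peaks below it. LEPR had 16.5% below its score and CEBPB 62.8%. By caller score, the PPARG and LEPR peaks both stood at 12, the lowest of the myoblast list, and CEBPB at 17. The median caller score of that list was 13.5. The tags at peak calling were 12.5 for PPARG, 13.5 for LEPR and 17 for CEBPB. Over all 14 peaks the median score was 11.8, against 12.6 for the list. By class, 7 of the 14 peaks were intergenic, 3 intronic and 1 exonic, against 77.1%, 13.6% and 0.677% of all myoblast peaks. The 3 others were the promoter peaks that the choice of genes fixed, a class with 7.49% of all myoblast peaks. That choice lowers the shares of the other classes, so they are not read as a trait of these genes.

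The absence of PPARG and LEPR from the myotube list does not show that c-Myc had left these sites. The myotube library was shallower and its peaks narrower (154 against 200 bp). Scaled for both, a myoblast peak needs a caller score of 18.9 to reach the lowest caller score of the myotube list, 11, and 15.5 tags at peak calling to reach its lowest tag count, 9. By caller score 0 of the 14 peaks reached that level, beside 4.12% of all myoblast peaks, and the highest of them, at -34678 bp of PPARG, had 18.5. By tags 5 of the 14 did, beside 33.5%. These were the 3 far upstream PPARG peaks, the CEBPB promoter peak and the LEPR peak in intron 10. Scaled in this way, the promoter peaks of PPARG and LEPR would hold 7.26 and 7.84 tags, under the lowest myotube peak. That of CEBPB would hold 9.87, within the listed range. The width factor of 0.77 assumes that tags spread evenly over a peak, which was not tested. By the depth factor alone, 0.754, every scaled count would be higher. Even the lowest of the 14 peaks, with 12 tags at peak calling, would then reach the lowest myotube tag count of 9. By tags, which peaks fall under the myotube list therefore depends on that assumption. By caller score, the promoter peaks of PPARG and LEPR, both at 12, would stay under 11 by the depth factor alone. That of CEBPB, at 17, would then pass it. No peak of the 14 was met by a myotube peak, beside 0.382% of all myoblast peaks. The closest myotube peak to the PPARG TSS was 171.3 kb away and assigned to CNBP, a zinc finger protein, and the closest to the LEPR TSS was 370.4 kb away and assigned to GADD45A, a stress-induced gene.

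**Figure D3:**
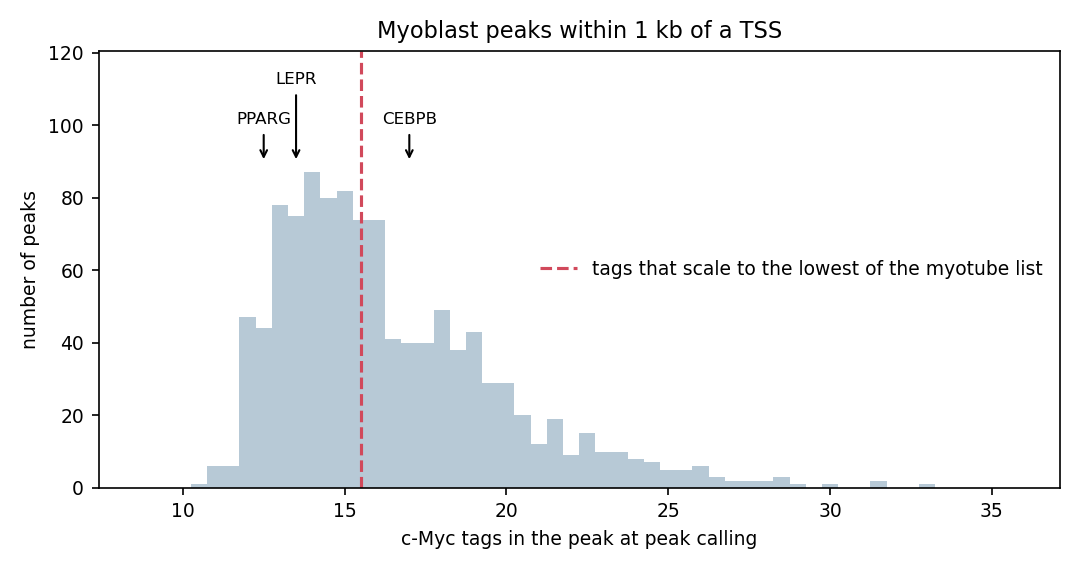
The histogram gives the number of myoblast peaks within 1 kb of a TSS (vertical axis) by c-Myc tags in the peak at peak calling (horizontal axis), with arrows for the peaks of PPARG, LEPR and CEBPB and a dashed line at the tags that scale, for depth and peak width, to the lowest tag count of the myotube list. PPARG at 12.5 and LEPR at 13.5 tags stand left of the line at 15.5, and CEBPB at 17 stands right of it. Scaled for depth alone, the line would lie further left, and PPARG, LEPR and CEBPB would all stand right of it.

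The number of peaks per gene differed among the 3. Shares here are of the 4768 genes with a myoblast peak. PPARG was among the 14.1% of these with 8 or more myoblast peaks, LEPR among the 39.9% with 4 or more and CEBPB among the 73.6% with 2 or more. The median gene had 3. Peaks were assigned to the nearest annotated TSS, so the count also depends on how far off the neighbouring annotated genes lie. It is not read as a trait of the 3 genes.

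The nearest-gene assignment also depends on which genes were annotated. All 20415 peaks of both lists were assigned to curated RefSeq transcripts. By gene order in the newer assembly GRCg7b, TIMP4, an inhibitor of metalloproteinases, and SYN2, a synapsin, are the nearest protein-coding genes upstream of PPARG, and both have predicted transcripts alone in that table. Neither gene is named in the lists, and whether the upstream peaks lie closer to their starts than to that of PPARG was not tested. The table also gives PPARG a further curated transcript, whereas the lists measure all 8 distances from a single one. In mammals PPARG is read from alternative promoters. LEPROT, which lies directly upstream of LEPR and encodes a small membrane protein, is named for no peak in myoblasts or myotubes.

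Neighbours of CEBPB and LEPR had peaks of their own. PTPN1, the protein-coding gene next to CEBPB, encodes a phosphatase that dampens leptin and insulin signalling. Its closest peak lay at 14761 bp, with a score of 12.6. TMEM189, on the other side of CEBPB, had its closest peak at 4271 bp with a score of 12.2. PDE4B, a cAMP phosphodiesterase downstream of LEPR, had 5 myoblast peaks, the closest at -722 bp with a score of 12.6. None of these 3 neighbours had a myotube peak.

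Other genes of fat cell development and leptin signalling carried promoter peaks in myoblasts too. The 5 lists used hold 177 symbols, of which 89 are named in the peak lists, and 14 of these (15.7%) had a peak within 1 kb of the TSS, beside 22.0% of all named genes. The lists were drawn up with results of these data known. Of 15 named genes on the list of adipogenic transcription factors 2 had such a peak. They were CEBPZ, a CCAAT-binding protein (score 17.0), and RORA, an orphan receptor of the clock (16.1). A role of CEBPZ in adipogenesis was not checked. CEBPG, a partner of other C/EBP factors, had its closest peak at -11.7 kb. EBF1 and EBF2, early B-cell factors that act with PPAR gamma in fat cells, had theirs at 1355 and 2839 bp. CEBPA and CEBPD are not named in the lists.

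Among PPAR, RXR and cofactor genes 1 of 12 had a promoter peak, THRA, a thyroid hormone receptor (12.6). The paralogs of PPARG had no promoter peak, PPARA with 1 peak at -2657 bp (score 13.1) and PPARD with a closest peak at -4386 bp (13.5). Adipocyte lipid genes had 2 of 22, PLIN2, a coat protein of lipid droplets, at 25 bp (13.5), and NAMPT, an enzyme of NAD synthesis, at -144 bp (11.8). Some others of this list had their closest myoblast peak just outside the window. These were ELOVL5, a fatty acid elongase, at -1023 bp, PNPLA2, the adipose triglyceride lipase, at 1024 bp, ACACA, acetyl-CoA carboxylase, at -1090 bp, CIDEA, a lipid droplet protein, at -1295 bp, CD36, a fatty acid transporter, at 1392 bp, and ADIPOQ, the adipokine adiponectin, at -1442 bp. The rest of the list had theirs farther out, the nearest being PLIN1 at -6388 bp. Among them were FABP4 at -11.7 kb, FASN at 21.1 kb and LPL at 23.8 kb. The share of all named genes with a peak at such distances was not computed, so nearness to the window is not read as a trait of these genes. Of the signalling genes of adipogenesis 3 of 21 had one, BMP4, which commits cells to the fat lineage in mice (17.0), ADIPOR2, an adiponectin receptor (15.3), and PTCH1, the Hedgehog receptor (10.5).

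Leptin and JAK-STAT signalling had 6 of 19, a share of 31.6% and above the 22.0% of all named genes. With a window of 500 bp it had 3 of 19, or 15.8%, below the 16.8% of all named genes, since LIFR, CNTFR and PTPN11 lay farther out. SOCS3, the inhibitor that leptin signalling induces, had a peak at -107 bp (score 15.7, 18 c-Myc and 6 IgG tags). IL6ST, the shared receptor subunit gp130, had one at -252 bp (14.8). LIFR, the leukaemia inhibitory factor receptor, had one at -502 bp and CNTFR, the ciliary neurotrophic factor receptor, one at 916 bp, both with 13.1. PTPN11, the phosphatase SHP2 that binds the leptin receptor, had one at 994 bp (11.8). JAK1, a Janus kinase of cytokine receptors, lies on chromosome 8 near LEPR and had a peak at -282 bp (27154943 to 27155143) with a score of 10.9 and 13 c-Myc against 1.5 IgG tags. JAK2, the kinase of the leptin receptor itself, had a single peak at 38.3 kb. IL6ST, LIFR and CNTFR lie on the Z chromosome.

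In myotubes 1 of the 89 genes (1.12%) had a promoter peak, beside 1.37% of all named genes. It was CISH, an inhibitor of STAT signalling, at -559 bp with a score of 15.0 and 13 c-Myc tags against 1 IgG tag, and its closest myoblast peak was 45.9 kb away. CREB1, a factor known from mouse cells to switch on Cebpb, had 1 myotube peak, at -2817 bp with a score of 17.3. The closest of its 8 myoblast peaks lay at 4580 bp with 13.9.

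**Figure D4:**
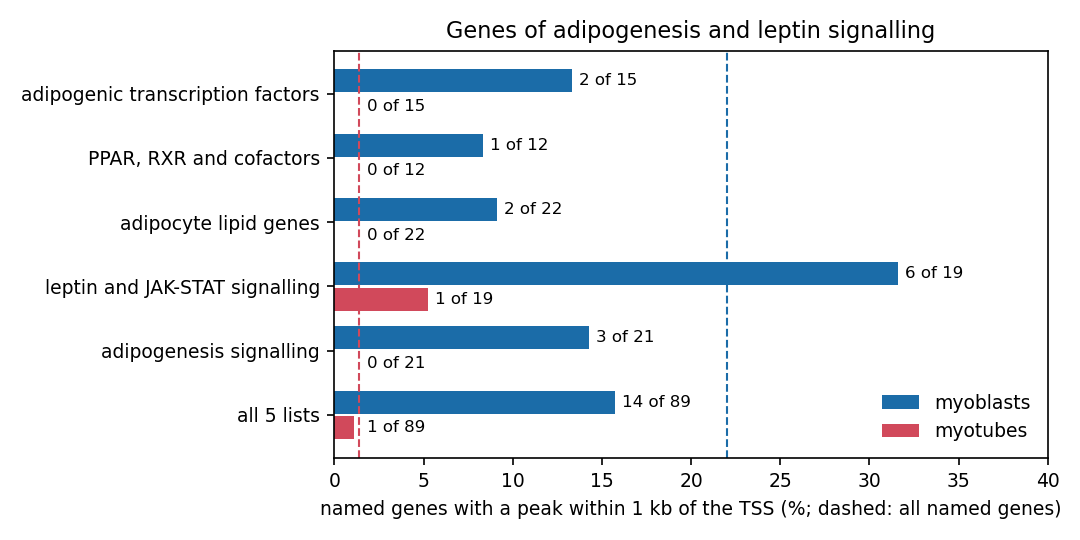
Bars give the share (%) of the named genes of each list with a peak within 1 kb of the TSS in myoblasts and in myotubes, with the counts beside them, and dashed lines give the shares of all named genes, 22.0% and 1.37%. Leptin and JAK-STAT signalling, with 6 of 19, is the list whose myoblast bar passes its line at 1 kb, though not at 500 bp, and CISH is the gene behind both myotube bars.

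Many genes had a promoter peak much like those of the 3. With the same pattern over both states and a score within 0.5 of its own, PPARG had 160 such genes, LEPR 228 and CEBPB 112. Closest to PPARG in distance from the TSS were PPP1R7, a phosphatase regulator (-934 bp, score 10.5), LHCGR, the luteinizing hormone receptor (-965 bp, 10.5), and MIR1743 (-913 bp from the precursor, 10.5). Closest to CEBPB were SNX3, a sorting nexin (367 bp, 15.3), the kinase LRRK2 (392 bp, 14.8) and C5H11ORF74 (350 bp, 14.8). Closest to LEPR were TMLHE, an enzyme of carnitine synthesis (-294 bp, 11.8), and ATP6AP2, a subunit of the proton pump (-278 bp, 12.2).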

How the data were processed

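Chromatin immunoprecipitation followed by sequencing was done by the authors on 4 libraries. CASAVA 1.8.2, Trimmomatic 0.30, FastQC 0.10.1, Bowtie2 2.1.0, HOMER 4.6 and the build galGal4 come per the submitters' processing notes. Peaks of c-Myc against IgG were annotated with HOMER per the file headers, with calling options not given in the sources used here. The deposited signal columns hold tags per peak, in steps of 0.5. The score, the fold over IgG (a ratio), the focus ratio (a fraction) and the p-value per peak are the authors' deposited values, the last 2 not printed. Peaks were matched by gene name with Python 3.11.15, pandas 2.3.3, numpy 2.4.6, scipy 1.17.1 and matplotlib 3.10.9. Genes were counted by Entrez identifier. A promoter peak is centred within 1 kb of the TSS, and overlap is at least 1 bp. Intervals are from exact 95% formulas for whole counts, so they are approximate for tags in steps of 0.5. Counting was tested on simulated data.

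The genes and lists were chosen with earlier results of these data known. Named were the 3 genes with their peaks, their neighbours in the RefSeq table of GRCg7b (99.1% of genes matched), list genes with a promoter peak, and the 3 genes most like each. CEBPG, CEBPA, CEBPD, EBF1, EBF2, PPARA, PPARD, JAK2, CREB1, ELOVL5, PNPLA2, ACACA, CIDEA, CD36, ADIPOQ, PLIN1, FABP4, FASN, LPL, CNBP and GADD45A were added after their values were seen. Some neighbours and like genes are not reported here. E-box motifs and sequences were not analysed here. Alternatives were other windows, score, fold and repeat filters, and overlap rules.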

Additional observations from a re-analysis of the deposited data

How the results depend on the processing

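Of 49 alternative values, 20 stayed within 1.5 times the reported count. No alternative overlap rule found a myotube peak at a peak of the 3 genes. Leaving out peaks labelled as simple repeat, low-complexity sequence or structural RNA gene removed none of their peaks. Keeping the higher-scoring 50% of each list, promoter peaks remained at 1 gene, CEBPB, PPARG had 3 peaks, LEPR 1 and CEBPB 0 in myotubes. With as many top myoblast peaks as there are myotube peaks, 0 of the 3 genes and 0 pathway genes had a promoter peak, and PPARG had 1 peak, LEPR 0 and CEBPB 0. Of myoblast peaks with a caller score that scales to the lowest of the myotube list, chosen after seeing the data, promoter peaks were left at 0 of the 3 genes and 3 pathway genes, with 0 peaks at PPARG, CEBPB and LEPR. With tags that scale to the lowest there, also chosen after, they were left at 1 of the 3 genes, CEBPB, and 6 pathway genes, with 3 peaks at PPARG, 1 at CEBPB and 1 at LEPR. A fold over IgG of at least 6 left 8 pathway genes, 6 PPARG peaks, 2 LEPR peaks and 0 CEBPB myotube peaks. The 14 pathway genes of myoblasts became 9 with a window of 500 bp, 39 with 5 kb and 88 at any distance, and the 1 of myotubes became 0, 3 and 20. At any distance 1 of the 3 genes, CEBPB, had a myotube peak. Window and filters change counts by construction. The share of all named genes with a myoblast promoter peak was 16.8% at 500 bp and was not computed at the other alternative settings. A lower count is therefore not read as a trait of these genes. No paired analysis was possible because each state has 1 library per antibody. Single peaks hold 11 to 21 c-Myc tags, which limits every ranking among them.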
